A study of Homo sapiens with 18 samples.

Results

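The common response of HepG2 cells to thyroid hormone was measured as the mean difference between T3 and vehicle over 3 cell pools. HepG2 is an established human hepatocellular carcinoma line. The pools were made from G418-selected clones: 6 clones with a plasmid for thyroid hormone receptor TRα1, 12 clones with a plasmid for TRβ1 and 11 clones with the empty plasmid (control). T3 (triiodothyronine, the active hormone) was given to every pool at 100 nM for 6 h, with ethanol as the vehicle, in medium whose 10% serum had been stripped of hormones. The 6 groups of 3 arrays were TRα1 pool on T3, TRβ1 pool on T3, control pool on T3, and the same pools on vehicle. All 18 of the 18 arrays entered, 9 with T3 and 9 with vehicle, as 9 pairs of the same pool and the same replicate number. Every construct is represented by 1 pool, so a receptor and the clones that carry it cannot be told apart, and the control pool holds only the receptors that HepG2 cells make themselves.

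T3 acts through nuclear receptors encoded by THRA and THRB, which sit on DNA mostly as heterodimers with the retinoid X receptors. At genes raised by the hormone, the empty receptor recruits corepressors and the bound receptor exchanges them for coactivators. At other genes the hormone lowers transcription, by mechanisms that are less well understood. In liver, T3 is known for raising gluconeogenesis, fatty acid oxidation, lipid turnover and the deiodinase DIO1.

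Expression was read as log2 values on Affymetrix Human Gene ST arrays, and 20546 features with a gene symbol were tested. Array medians lay between 5.31 and 5.49. The largest source of variation was the replicate number: the first principal component took up 49.2% of the variance, with the 6 arrays of replicate number 1 at one end (-39.2 to -32.3) and the other 12 arrays above 0 (up to 22.6), and the second took up 10.9%. All contrasts below therefore compare arrays within a replicate number. Of 11 hepatocyte markers chosen for a check of the label, 10 were tested, with mean levels between 7.74 and 12.75, and the 4 hepatoblast markers lay between 10.2 and 12.5. Mean levels ran from 3.65 to 4.80 for 5 endothelial, 3.12 to 6.05 for 4 lymphocyte, 2.46 to 8.51 for 5 macrophage, 2.62 to 9.27 for 6 stellate cell or fibroblast and 3.01 to 10.4 for 4 cholangiocyte markers, the last 3 reaching into the hepatocyte range, and no member of the macrophage, endothelial, lymphocyte, cholangiocyte or fibroblast lists was called. Over all genes 1.79% were called, so 0 calls in lists this short is near what any genes would give. No detection calls were used, so none of these levels can be called absent, and levels of different features are not comparable in size.

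On the mean over the 3 pools, T3 changed 347 of the 20546 features (1.69%) at a Benjamini-Hochberg adjusted p under 0.05 in limma. It raised 279 (1.36%) and lowered 68 (0.331%). Features with 1 symbol accounted for 266 genes that rose and 66 that fell. In the same fit each pool taken alone gave fewer calls. The TRα1 pool had 120 features higher (0.584%) and 17 lower (0.0827%), the TRβ1 pool had 83 higher (0.404%) and 15 lower (0.073%), and the control pool had 20 higher (0.0973%) and 0 lower. The median standard error was 0.0616 log2 for the mean over pools and 0.107 for a single pool. On the mean, 2126 features had a p under 0.05 before adjustment, 933 higher and 1193 lower. Over all 20546 features, 11867 lay below 0 and 8679 above. The excess of lower ones is thus not particular to features with such a p. Bulk RNA from a pool does not tell fewer cells of a kind from less RNA per cell.

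Features that passed only on the mean mostly had small differences. This is largely set by the rule, because the mean has a smaller standard error than a single pool. Of the 68 features that fell, 46 passed in no single pool (0.224% of features tested), 13 passed in 1 pool, 9 in 2 pools and 0 in all 3. Of the 279 that rose, 153 passed in no single pool (0.745%), 49 in 1 pool, 59 in 2 pools and 18 in all 3. A further 3 features passed in a pool and not on the mean. The median difference was -0.257 log2 for the features that fell and 0.344 for those that rose, against -0.0144 over all features. A size under 0.5 log2, which is a 1.41-fold change, was seen for 66 of the 68 that fell and 213 of the 279 that rose, and the smallest size called was 0.162. Of the 46 lowered features that passed in no single pool, 37 lay at 0.2 to 0.3 and 0 at 0.5 to 1. Of the 153 such raised features, 79 lay at 0.2 to 0.3, 3 at 0.5 to 1 and 1 over 1. All 9 pairs had the sign of the mean for 46 of 68 and 235 of 279 features. These features were chosen on the same pairs, so the shares describe them and are no separate support.

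**Figure D1:**
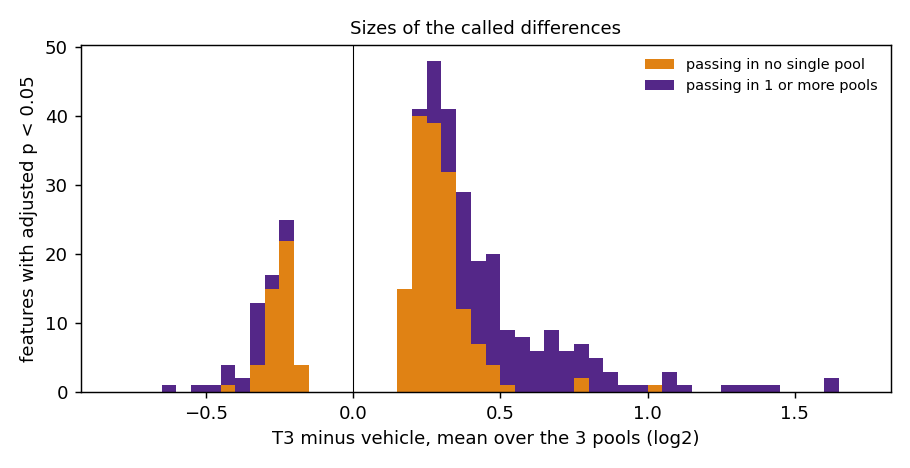
Number of features with an adjusted p under 0.05 (vertical axis) by their T3 minus vehicle difference averaged over the 3 pools (horizontal axis, log2), with features that passed in no single pool in orange and the others in purple. The 68 features that fell reach no lower than -0.64, and 46 of them are orange, whereas the 279 that rose extend to 1.64 and 153 of them are orange.

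The number of calls depended on the arrays used. The count of lowered features was 16 without replicate number 1, 15 without number 2 and 9 without number 3, and that of raised features 150, 134 and 94. With 1 array left out, the lowered count moved by more than 1.5 times for 4 of the 18 arrays: TRβ1 on T3 replicate 3 (43), TRα1 on vehicle replicate 3 (45), TRβ1 on vehicle replicate 1 (44) and TRβ1 on vehicle replicate 2 (43). With any 1 array left out, calls in single pools ran from 89 to 141 (TRα1), 46 to 100 (TRβ1) and 3 to 19 (control). Leaving out the TRα1 pool gave 13 lowered and 106 raised features, leaving out the TRβ1 pool 5 and 99, and leaving out the control pool 60 and 258. Of the original 68 features, 41 to 52 were called again with any 1 array left out, and all 68 kept their sign under every alternative that tested them.

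Among the 12 genes with the lowest differences, the largest fall was that of CEMIP, which encodes a hyaluronan-binding protein involved in hyaluronan breakdown. Its lowest, median and highest levels were 6.52, 6.99 and 7.51 on the 9 T3 arrays and 7.26, 7.58 and 7.91 on the 9 vehicle arrays. The ranges overlapped across pools, but T3 was lower in 9 of 9 pairs. The mean difference was -0.64 ± 0.06 (SE here and below) with an adjusted p of 7.8e-06, and the pools gave -0.74 (TRα1), -0.82 (TRβ1) and -0.34 (control). TGFBR3, the TGF-β co-receptor betaglycan, fell by 0.41 ± 0.06 (adjusted p = 5.5e-04), with pool differences of -0.48, -0.49 and -0.26 (TRα1, TRβ1, control).

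SLC2A1 encodes the glucose transporter GLUT1. It stood at 10.27, 10.69 and 10.98 (lowest, median and highest) on T3 and at 10.81, 11.19 and 11.38 on vehicle. The difference was -0.52 ± 0.05 (adjusted p = 1.2e-05), lower in 9 of 9 pairs, with pool differences of -0.57 (TRα1), -0.65 (TRβ1) and -0.35 (control). CEMIP, SLC2A1, OAS1 and TOX3 stayed past the threshold without any 1 replicate number or any 1 pool.

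ANKRD1, a transcriptional cofactor and common readout of YAP activity, had T3 levels of 7.16, 7.44 and 8.88 and vehicle levels of 7.66, 8.23 and 9.23. It fell by 0.49 ± 0.08 (adjusted p = 0.0021), lower in 9 of 9 pairs, with pool differences of -0.51, -0.81 and -0.16 (TRα1, TRβ1, control). The interferon-induced antiviral enzyme OAS1 had levels of 6.97, 7.01 and 7.22 on T3 and 7.19, 7.50 and 7.83 on vehicle, so that only the ends of the ranges met. It fell by 0.43 ± 0.05 (adjusted p = 1.6e-04), and TOX3, an HMG-box transcription factor, fell by 0.41 ± 0.05 (adjusted p = 1.2e-04). SLC1A4, a transporter of neutral amino acids, fell by 0.34 ± 0.04 (adjusted p = 1.3e-04) with all 3 replicate numbers between -0.35 and -0.33. Its pairs ran from -0.45 to -0.31 (TRα1), -0.51 to -0.42 (TRβ1) and -0.22 to -0.16 (control). The SLC1A4 call was lost without the replicate block (limma adjusted p = 0.25).

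The other members of the 12 were less even. SCN1A, a voltage-gated sodium channel, differed by -0.34 ± 0.08 on the mean (adjusted p = 0.031), with -0.59 and -0.47 in the TRα1 and TRβ1 pools and 0.03 in the control pool. Its call held for 6 of the 18 arrays left out in turn, and that of TMC7 (-0.43 ± 0.09, adjusted p = 0.023) for 11. The adaptor gene SORBS2 fell by 0.38 ± 0.06 in its brighter feature (adjusted p = 0.0014), while a second, dim feature of the gene gave 0.06 (adjusted p = 0.86). EEIG2 fell by 0.34 ± 0.06 (adjusted p = 0.0095) and ARID5B, a DNA-binding chromatin regulator, by 0.33 ± 0.06 (adjusted p = 0.0036). Each of these 2 calls held for only 1 of the 3 replicate numbers left out in turn. With pools left out in turn, the EEIG2 call held for 0 of 3 and that of ARID5B for 2.

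**Figure D2:**
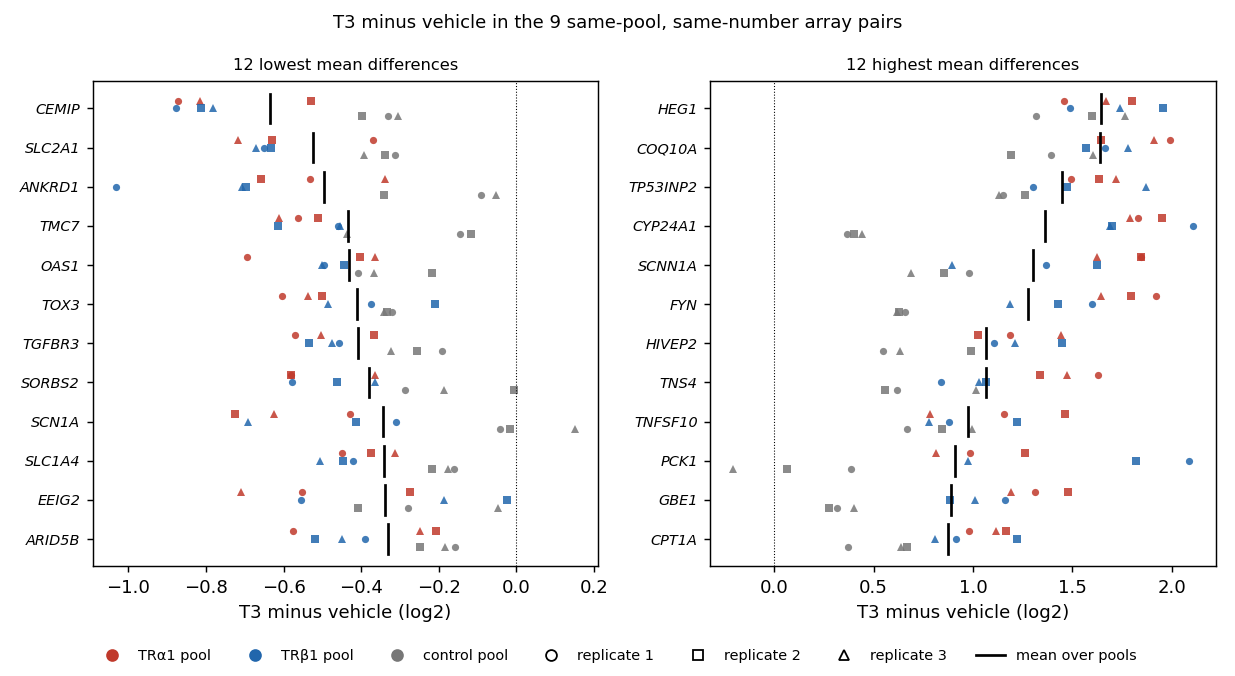
T3 minus vehicle difference (horizontal axis, log2) in each of the 9 pairs for the 12 genes with the lowest (left) and the 12 with the highest mean difference (right). Colour gives the pool, symbol shape the replicate number and the black bar the mean over pools; all CEMIP and SLC2A1 pairs lie below 0, and the control pool lies nearest 0 for CYP24A1, FYN and PCK1.

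A set of genes fell on the mean without passing in any single pool and was lower in 9 of 9 pairs. There were 30 such features, and the 16 with the lowest p are described here. TGFA, a ligand of the EGF receptor, had levels of 6.35, 6.58 and 6.87 on T3 and 6.74, 6.87 and 6.98 on vehicle. It fell by 0.29 ± 0.05 (adjusted p = 0.0039), with pool differences of -0.32, -0.38 and -0.18 (TRα1, TRβ1, control). ARHGAP18 had levels of 9.08, 9.32 and 9.39 on T3 and 9.44, 9.53 and 9.76 on vehicle, with no overlap between the 9 T3 and the 9 vehicle arrays. Its difference was -0.27 ± 0.05 (adjusted p = 0.0060).

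SORBS3 (vinexin), an adaptor at focal adhesions, fell by 0.30 ± 0.05 (adjusted p = 0.0040) with pool differences of -0.24 (TRα1), -0.33 (TRβ1) and -0.31 (control). MYO10, the motor of filopodia, differed by -0.25 ± 0.04 (adjusted p = 0.0067), and CORO2A, a coronin, by -0.25 ± 0.05 (adjusted p = 0.018).

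OSBPL10, an oxysterol-binding protein relative, fell by 0.25 ± 0.04 (adjusted p = 0.0044). LDAF1, a lipid droplet assembly factor, differed by -0.25 ± 0.05 (adjusted p = 0.011), and GLYCTK, glycerate kinase, by -0.24 ± 0.05 (adjusted p = 0.0095). NOL4L had the lowest p of the 16, with a difference of -0.27 ± 0.04 (adjusted p = 0.0018). CNP, DCBLD1, ART4, SH3BGRL2 and SLC38A11 differed by between -0.27 and -0.20. The smallest of the 16 was MSI2, an RNA-binding translation regulator, at -0.17 ± 0.04 (adjusted p = 0.023), with -0.21, -0.24 and -0.07 (TRα1, TRβ1, control). The calls of MSI2, SH3BGRL2 and SLC38A11 held with 11, 14 and 16 of the 18 arrays left out in turn, and those of the other 13 with all 18. Larger changes ended most of them: 13 of the 16 lost the call without each of the 3 replicate numbers in turn and the other 3 kept it without 1 of them, 1 (ARHGAP18) was called without the replicate block, and 0 with 3 replicate-number means as the unit. The count of features lowered on the mean and in no single pool, 46 here, was 29 without TRβ1 on T3 replicate 3, 29 without TRβ1 on vehicle replicate 1 and 30 without control on vehicle replicate 3.

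The 8 genes raised by the same rule included regulators of metabolism and of the hypoxia response. MLXIPL encodes ChREBP, the glucose-sensing transcription factor of the liver. Its levels were 7.56, 7.89 and 8.36 on T3 and 7.15, 7.40 and 7.76 on vehicle. It rose by 0.45 ± 0.07 (adjusted p = 0.0014), with 0.45, 0.42 and 0.48 (TRα1, TRβ1, control), so that the empty-plasmid pool moved as far as the receptor pools. EPAS1, the hypoxia-inducible factor subunit HIF-2α, rose by 0.30 ± 0.05 (adjusted p = 0.0014), and SLC25A15, the mitochondrial ornithine carrier of the urea cycle, by 0.36 ± 0.05 (adjusted p = 0.0012). ARHGEF16 rose by 0.44 ± 0.06 (adjusted p = 0.0011), and its 9 T3 arrays (6.94 to 7.27) lay above its 9 vehicle arrays (6.42 to 6.85). RMI1, part of the complex that dissolves Holliday junctions, rose by 0.38 ± 0.05, LEO1, a subunit of the transcription elongation complex PAF1, by 0.31 ± 0.04, and UAP1, which makes UDP-GlcNAc, by 0.28 ± 0.04 (adjusted p from 8.4e-04 to 0.0011). All 8 passed with each of the 18 arrays left out, 3 without the replicate block and 1 with 3 replicate-number means as the unit.

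**Figure D3:**
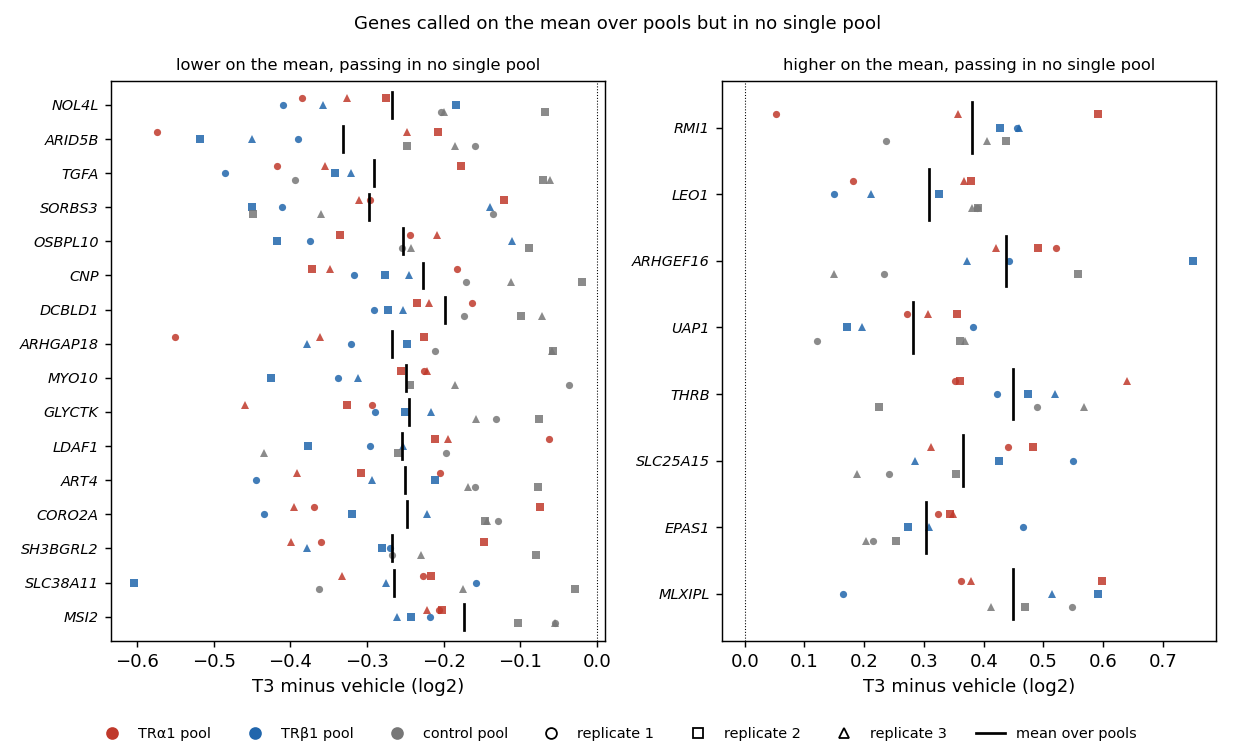
T3 minus vehicle difference (horizontal axis, log2) in each of the 9 pairs for 16 genes lowered (left) and 8 raised (right) on the mean that passed in no single pool. Colours, symbol shapes and black bars are those of the plot of the 12 lowest and 12 highest genes; every pair lies on the side of its mean, as the rule for these genes requires.

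Promoter windows were searched for genes named by their change or their pool difference, leaving out those without a window and those on an excluded chromosome. Of the 45 windows searched, 6 held AGGTCA, the half-site that thyroid hormone receptors and other nuclear receptors bind: those of GLYCTK, MSI2, LEO1, GBE1, ARHGEF16 and PTAFR. The first 4 are shown, a pair that fell and a pair that rose. Each runs from 250 bases before to 50 bases after the start of the gene in RefSeq on GRCh38.p14, is written 5′ to 3′ on the gene's strand, and has the half-site in capitals (TGACCT where it lies on the other strand). GLYCTK and MSI2 fell, and LEO1 and GBE1 rose. The windows are GLYCTK at chr3:52289816-52290115 on the plus strand, MSI2 at chr17:57255601-57255900 on the plus strand, LEO1 at chr15:51971729-51972028 on the minus strand and GBE1 at chr3:81761596-81761895 on the minus strand.
GLYCTK: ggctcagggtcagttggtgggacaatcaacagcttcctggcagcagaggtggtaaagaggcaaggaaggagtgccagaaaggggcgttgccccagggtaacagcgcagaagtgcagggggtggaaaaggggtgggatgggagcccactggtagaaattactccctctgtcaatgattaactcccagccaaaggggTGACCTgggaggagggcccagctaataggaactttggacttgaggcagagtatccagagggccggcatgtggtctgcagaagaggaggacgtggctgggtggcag
MSI2: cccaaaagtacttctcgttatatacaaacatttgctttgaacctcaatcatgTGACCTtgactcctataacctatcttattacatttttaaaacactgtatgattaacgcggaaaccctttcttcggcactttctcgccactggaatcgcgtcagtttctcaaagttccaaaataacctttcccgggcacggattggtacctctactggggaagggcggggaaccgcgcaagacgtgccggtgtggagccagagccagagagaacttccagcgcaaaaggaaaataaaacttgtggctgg
LEO1: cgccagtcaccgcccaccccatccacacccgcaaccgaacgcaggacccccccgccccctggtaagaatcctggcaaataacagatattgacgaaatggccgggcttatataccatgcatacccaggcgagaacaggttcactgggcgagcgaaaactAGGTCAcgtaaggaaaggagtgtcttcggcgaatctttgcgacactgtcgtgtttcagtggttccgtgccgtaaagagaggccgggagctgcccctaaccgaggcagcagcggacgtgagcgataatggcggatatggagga
GBE1: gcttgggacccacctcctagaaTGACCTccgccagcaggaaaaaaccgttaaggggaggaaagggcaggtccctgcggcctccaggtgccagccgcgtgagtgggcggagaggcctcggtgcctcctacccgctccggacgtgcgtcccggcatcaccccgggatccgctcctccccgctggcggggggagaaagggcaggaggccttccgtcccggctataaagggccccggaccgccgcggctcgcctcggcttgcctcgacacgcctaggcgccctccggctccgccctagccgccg

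The half-site, searched on both strands, was present in the windows of 30 of 210 raised genes (14.3%) and 6 of 49 lowered genes (12.2%) with a promoter in the table, against 1577 of 14231 tested genes (11.1%). A direct repeat of AGGTCA with any 4 bases between the copies was found in 0 windows of the raised genes, 0 of the lowered genes and 1 of all windows (0.00703%). Presence of the letters is no sign of binding, and elements farther from the start or with other letters were not searched.

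Genes of glucose handling held 2 falls, both transporters, and 3 rises, all enzymes of gluconeogenesis or glycogen. In the list of glycolysis and glucose uptake, 2 of 25 tested members fell and 0 rose (median -0.01 log2, against -0.015 over all 18405 genes, of which 0.353% fell and 1.44% rose). They were SLC2A1 and SLC2A2. Those all-gene shares are the background for every list below. The lists were written with earlier results of these data known, so a list share above the background is no separate support. SLC2A2, the hepatocyte transporter GLUT2, had levels of 7.98, 9.04 and 9.70 on T3 and 8.38, 9.33 and 9.96 on vehicle, with T3 lower in 9 of 9 pairs. Its difference was -0.32 ± 0.08 (adjusted p = 0.040) and close to equal in the TRα1 (-0.34), TRβ1 (-0.35) and control (-0.28) pools, but the call held with only 3 of the 18 arrays left out in turn (adjusted p up to 0.102). The neuronal-type transporter SLC2A3 differed by -0.17 (adjusted p = 0.12).

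In the list of gluconeogenesis and glycogen, 3 of 14 rose and 0 fell (median -0.01). PC and PYGL were lower in 9 of 9 pairs, at -0.13 each, and did not pass (adjusted p = 0.26 and 0.31). G6PC1, the glucose-6-phosphatase that releases free glucose, had levels of 5.39, 6.02 and 6.89 on T3 and 4.79, 5.19 and 5.55 on vehicle and rose by 0.87 ± 0.10 (adjusted p = 7.6e-05). PCK1, which makes phosphoenolpyruvate, rose by 0.91 ± 0.11 (adjusted p = 1.3e-04), with 1.02, 1.63 and 0.08 (TRα1, TRβ1, control). GBE1, the glycogen branching enzyme, rose by 0.89 ± 0.07 (adjusted p = 4.6e-06), with 1.33, 1.02 and 0.33.

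Of 22 genes that textbooks give as raised by T3, 6 rose (27.3%) and 1 fell (4.55%, median 0.05), against 1.44% and 0.353% of all genes. DIO1, the deiodinase that is a standard liver readout of the hormone, had levels of 7.39, 7.76 and 8.10 on T3 and 7.16, 7.41 and 7.76 on vehicle. It rose by 0.31 ± 0.05 (adjusted p = 0.0023) while passing in no single pool, with 0.27, 0.32 and 0.34 (TRα1, TRβ1, control). CPT1A, which admits fatty acids to mitochondria, rose by 0.88 ± 0.06 (adjusted p = 4.3e-07), and KLF9, a hormone-responsive transcription factor, rose by 0.36 ± 0.06 (adjusted p = 0.0044) with 0.04 in the control pool. BCL3, an NF-κB cofactor, rose by 0.29 ± 0.06 (adjusted p = 0.027), a call that held with 9 of the 18 arrays left out in turn. THRSP differed by 0.06 (adjusted p = 0.83) and ME1 by -0.07 (adjusted p = 0.81).

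The member of that list that fell was PPARGC1A, the coactivator PGC-1α of mitochondrial and gluconeogenic genes. Its levels were 5.81, 6.22 and 6.66 on T3 and 6.11, 6.45 and 6.82 on vehicle, and T3 was lower in 8 of 9 pairs. The difference was -0.22 ± 0.05 (adjusted p = 0.022), with -0.23, -0.14 and -0.29 (TRα1, TRβ1, control), and the call held with 9 of the 18 arrays left out in turn. Among 15 corepressors and coactivators it was the 1 that fell, and NRIP1, the corepressor RIP140, was the 1 that rose, by 0.29 ± 0.05 (adjusted p = 0.0021) in 9 of 9 pairs. Of 21 other nuclear receptors 1 fell, PPARG, the regulator of fat storage, by 0.25 ± 0.06 (adjusted p = 0.040), with -0.27, -0.23 and -0.25 (TRα1, TRβ1, control). Its call held with 3 of the 18 arrays left out in turn.

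The 5 genes of thyroid hormone receptors and their RXR partners held 1 call, THRB. The TRα1 pool had levels of 6.93, 7.13 and 7.50 on T3 and 6.58, 6.77 and 6.87 on vehicle. The TRβ1 pool had 7.39, 7.48 and 7.40 on T3 and 6.97, 7.01 and 6.88 on vehicle, and the control pool 6.90, 7.12 and 7.20 on T3 and 6.41, 6.90 and 6.63 on vehicle. Within each pool all T3 arrays lay above all vehicle arrays, though the nearest arrays of the control pool were both at 6.90. The mean difference was 0.45 ± 0.07 (adjusted p = 0.0011), higher in 9 of 9 pairs, with 0.45, 0.47 and 0.43 (TRα1, TRβ1, control). THRB passed in no single pool, and it was the 1 call among 14 genes listed as textbook targets lowered by T3, of which 0 fell (median -0.02). THRA differed by 0.12 ± 0.08 (adjusted p = 0.67). Whether the features of these genes also read the plasmids' transcripts was not tested.

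Of 25 genes of coagulation and fibrinolysis 5 rose (20%) and 0 fell (median 0.01), against 1.44% and 0.353% of all genes. All 3 fibrinogen chains were among them. FGA had levels of 11.81, 11.89 and 12.03 on T3 and 11.35, 11.54 and 11.70 on vehicle, with no overlap, and rose by 0.38 ± 0.05 (adjusted p = 1.4e-04). FGG rose by 0.35 ± 0.06 (adjusted p = 0.0031) and FGB by 0.26 ± 0.06 (adjusted p = 0.049), and the FGB call held with 4 of the 18 arrays left out in turn. The FGG differences were 0.33, 0.36 and 0.35 (TRα1, TRβ1, control). SERPIND1, the thrombin inhibitor heparin cofactor II, rose by 0.21 ± 0.04 (adjusted p = 0.015), and F13B, the carrier subunit of factor XIII, by 0.75 ± 0.11 (adjusted p = 0.0011), with 0.30, 0.84 and 1.10.

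Of 30 complement and acute phase genes 3 rose (10%) and 0 fell, against 1.44% and 0.353% of all genes. MBL2, the mannose-binding lectin, rose by 0.83 ± 0.09 (adjusted p = 3.7e-05), its partner protease MASP1 by 0.48 ± 0.06 (adjusted p = 3.5e-04) and HAMP, the iron hormone hepcidin, by 0.56 ± 0.07 (adjusted p = 2.2e-04). The MASP1 difference was 0.07 in the control pool and 0.62 and 0.76 in the TRα1 and TRβ1 pools. Among 17 genes of lipoproteins 2 rose: APOC1 by 0.79 ± 0.09 (adjusted p = 7.9e-05) and APOA5, which promotes triglyceride clearance, by 0.46 ± 0.07 (adjusted p = 0.0012).

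Of 18 circadian genes 4 rose (22.2%) and 0 fell (median 0.02), against 1.44% and 0.353% of all genes. The repressor NR1D1 (REV-ERBα) had levels of 6.97, 7.23 and 7.37 on T3 and 6.71, 6.77 and 6.86 on vehicle, with no overlap, and rose by 0.44 ± 0.04 (adjusted p = 3.6e-05). The related PAR-domain factors HLF and DBP rose by 0.40 ± 0.04 (adjusted p = 7.8e-05) and 0.32 ± 0.05 (adjusted p = 0.0045), and DBP passed in no single pool. BHLHE40, a repressor of clock genes, rose by 0.29 ± 0.07 (adjusted p = 0.047), a call that held with 4 of the 18 arrays left out in turn. BMAL1, a core activator of the clock, differed by -0.30 ± 0.09 and was lower in 9 of 9 pairs, but did not pass (adjusted p = 0.15).

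Of 19 hypoxia-responsive genes 4 rose (21.1%) and 1, SLC2A1, fell (5.26%, median 0.06), against 1.44% and 0.353% of all genes. HIF1A, the oxygen-regulated transcription factor subunit itself, had levels of 9.72, 10.04 and 10.53 on T3 and 9.32, 9.53 and 9.83 on vehicle. It rose by 0.57 ± 0.05 (adjusted p = 1.0e-05) and passed in all 3 pools, with 0.58, 0.61 and 0.51 (TRα1, TRβ1, control). The peptide hormone ADM rose by 0.28 ± 0.06 (adjusted p = 0.036) and the collagen prolyl hydroxylase P4HA1 by 0.22 ± 0.05 (adjusted p = 0.037), and these calls held with 3 and 4 of the 18 arrays left out in turn. ADM pairs ran from 0.06 to 0.73 (TRα1), 0.23 to 0.65 (TRβ1) and -0.05 to 0.24 (control). BHLHE40 is on this list too.

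Of 19 Wnt targets 2 fell (10.5%) and 0 rose (median -0.04), against 0.353% and 1.44% of all genes. SP5, a feedback repressor, had levels of 7.97, 8.30 and 8.54 on T3 and 8.26, 8.49 and 8.80 on vehicle and fell by 0.23 ± 0.04 (adjusted p = 0.0094). The Wnt antagonist APCDD1 fell by 0.30 ± 0.06 (adjusted p = 0.012). With replicate numbers left out in turn, the SP5 call held for 0 of 3 (limma adjusted p from 0.061 to 0.36) and that of APCDD1 for 1. With pools left out in turn, they also held for 0 and 1 of 3. AXIN2 (-0.04) and LGR5 (0.09) did not pass, with adjusted p of 0.88 and 0.79. Of the 19 Wnt targets, 14 lay below 0 and 5 above, against 10716 and 7689 of all 18405 genes. DKK4 and TNFRSF19 were higher in every pair (0.06 to 0.47 and 0.09 to 0.29) and did not pass. Of 22 YAP and TEAD targets 4 were called (18.2%, against 1.79% of all genes): ANKRD1 fell while CRIM1, AJUBA and GADD45A rose by 0.42 ± 0.04, 0.25 ± 0.04 and 0.25 ± 0.05 (adjusted p from 8.1e-06 to 0.012). GADD45A pairs ran from 0.41 to 0.58 (TRα1), 0.14 to 0.34 (TRβ1) and -0.04 to 0.06 (control). The Wnt and YAP lists were written with earlier results of these data known, so their shares describe them and are no separate support. Of 19 genes of the IGF and insulin axis 1 rose, the insulin-responsive kinase SGK1 (0.81 ± 0.06, adjusted p = 3.5e-06), and 1 fell. IGFBP1, an insulin-repressed binding protein of IGFs, fell by 0.32 ± 0.06 (adjusted p = 0.0089), with -0.37, -0.50 and -0.08 (TRα1, TRβ1, control).

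Of 22 interferon-response genes OAS1 fell, whereas IRF1, an interferon-responsive transcription factor, rose by 0.66 ± 0.07 (adjusted p = 7.9e-05) and MX2, an antiviral GTPase, by 0.25 ± 0.04 (adjusted p = 0.0015). The MX2 differences were 0.23, 0.27 and 0.26 (TRα1, TRβ1, control), and none passed alone. Of 30 matrix and integrin genes CEMIP fell and TIMP3, an inhibitor of metalloproteinases, rose by 0.39 ± 0.05 (adjusted p = 6.9e-04), and a second TIMP3 feature gave 0.52 (adjusted p = 0.023). Of 8 genes of the epithelial sodium channel and SGK1 axis 3 rose, among them the channel subunit SCNN1A (1.30 ± 0.08, adjusted p = 1.1e-07) and SGK1. Over all genes 1.44% rose and 0.353% fell.

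**Figure D4:**
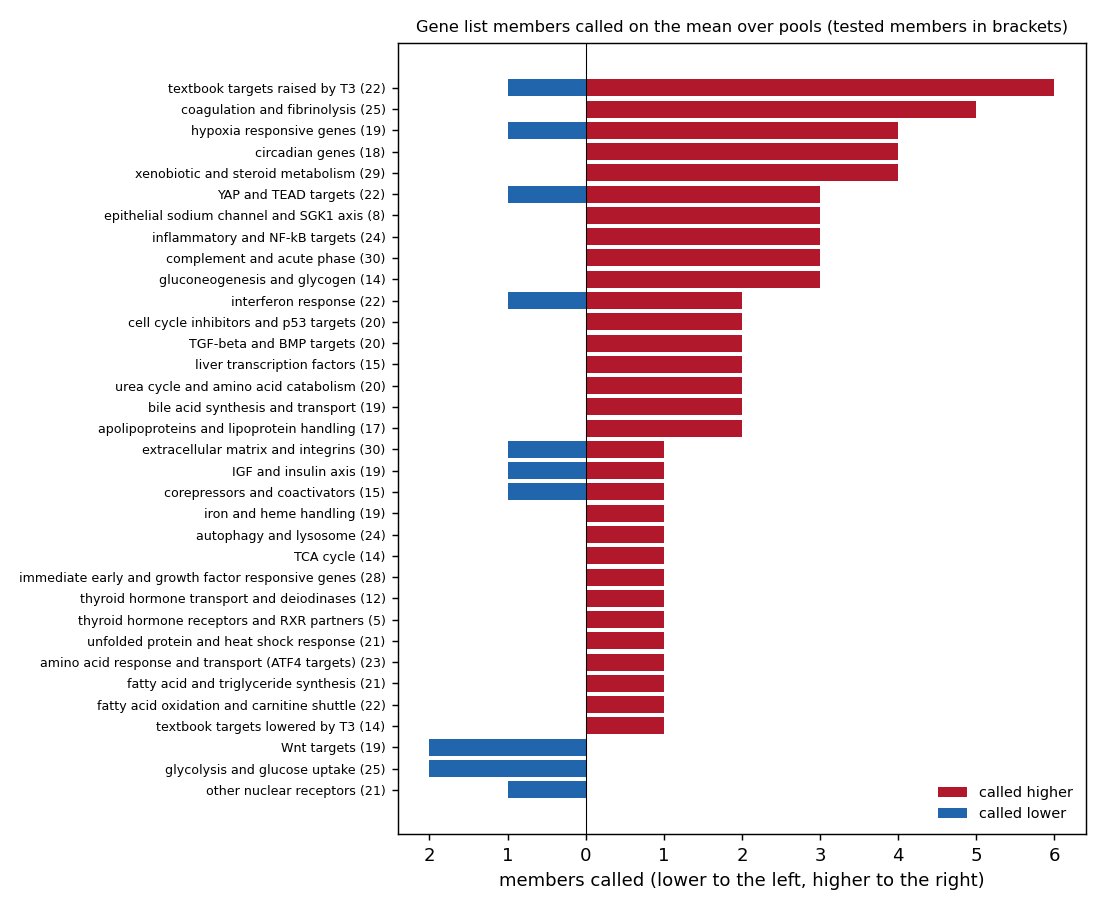
Members of 34 gene lists called lower (blue, to the left) or higher (red, to the right) on the mean over pools, with the number of tested members in brackets. The other 6 lists that are not cell type markers had 0 calls; the Wnt list, the list of glycolysis and glucose uptake and that of other nuclear receptors have calls to the left only.

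Lists of the basic cell machinery held 0 calls in either direction: 33 genes of G1/S and DNA replication (median -0.01), 30 of G2/M (0.03), 29 respiratory chain subunits (0.01), 23 of ribosome biogenesis (-0.04), 21 of cholesterol synthesis and uptake (0.01) and 10 clustered histone genes (0.0018). For comparison, 1.79% of the 18405 genes were called. With a background this low, 0 calls in lists of this size is near what any genes would give.

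The genes with the highest differences were called in most pools. HEG1, a transmembrane receptor of endothelial and heart development, had levels of 8.11, 8.60 and 8.74 on T3 and 6.58, 6.80 and 7.05 on vehicle, with no overlap. It rose by 1.64 ± 0.07 (adjusted p = 3.7e-09), with 1.64, 1.73 and 1.56 (TRα1, TRβ1, control). COQ10A, a coenzyme Q-binding protein, rose by 1.64 ± 0.08 and TP53INP2, a regulator of autophagy, by 1.45 ± 0.07 (adjusted p = 7.8e-09 for both). HIVEP2, a zinc-finger transcription factor, TNS4, a tensin of focal adhesions, and TNFSF10, the death ligand TRAIL, rose by 1.07 ± 0.06, 1.06 ± 0.07 and 0.98 ± 0.08.

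Among raised metabolic genes, CYP3A5 passed in each pool alone, and GSTA2 and CYP1A1 passed in no single pool. Of 29 genes of xenobiotic and steroid metabolism 4 rose (13.8%, against 1.44% of all genes): CYP24A1, CYP3A5, GSTA2 and CYP1A1. CYP3A5, a drug-metabolising cytochrome, rose by 0.58 ± 0.06 (adjusted p = 2.7e-05), with 0.57, 0.49 and 0.67 (TRα1, TRβ1, control). The glutathione transferase GSTA2 rose by 0.77 ± 0.13 (adjusted p = 0.0036) and the aryl hydrocarbon target CYP1A1 by 0.77 ± 0.14 (adjusted p = 0.0083), and both had larger standard errors than the others named here. CYP1A1 levels ran from 6.07 to 9.94 on T3 and from 5.36 to 9.62 on vehicle, so the pools and replicates spread more widely than the treatment moved them.

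To measure the calls in arrays that took no part in them, features were called from 2 pools and then read in the pool left out. Left-out TRα1 arrays had the same sign for 105 of 106 raised and 11 of 13 lowered features, with median differences of 0.658 and -0.35. Left-out TRβ1 arrays had it for 98 of 99 and 5 of 5, with 0.599 and -0.489. Left-out control arrays had it for 243 of 258 (94.2%) and 49 of 60 (81.7%), with medians of 0.231 and -0.142, against 46.2% of all features above 0 and 53.8% below 0 in that pool. The left-out control pool had smaller differences than the pools used for the calls, where the medians were 0.401 and -0.345. Medians in the arrays used for the calls are enlarged by the choice itself.

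Called from 2 replicate numbers and read in the third, lowered features had the same sign for 13 of 16 in number 1, 15 of 15 in number 2 and 9 of 9 in number 3, with medians of -0.325, -0.337 and -0.411. Raised features had it for 148 of 150, 131 of 134 and 94 of 94, with medians of 0.42, 0.479 and 0.611. Left-out pools share replicate numbers with the arrays used for the calls, and left-out replicate numbers share pools with them.

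**Figure D5:**
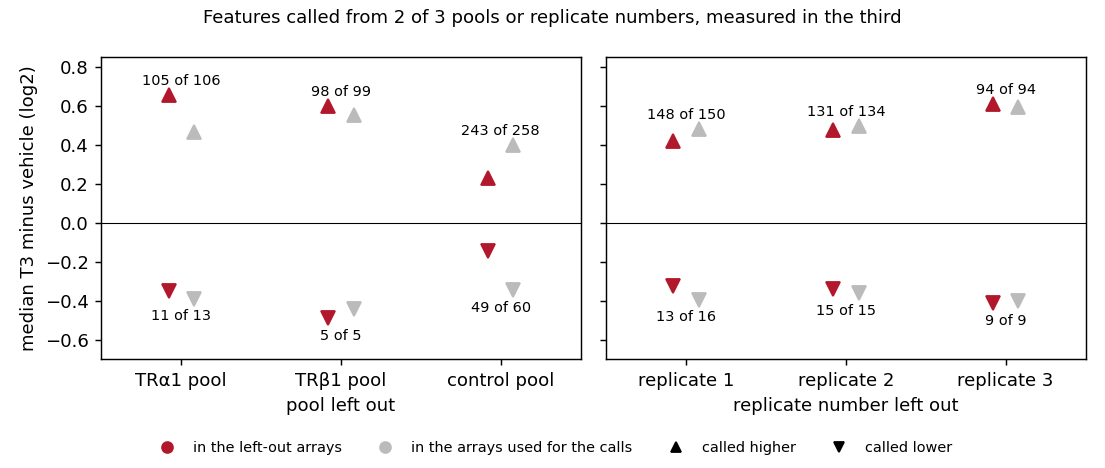
Median T3 minus vehicle difference (vertical axis, log2) of features called from 2 of 3 pools (left) or 2 of 3 replicate numbers (right), in the left-out arrays (red) and in the arrays used for the calls (grey), with triangles pointing up for raised and down for lowered features. The printed counts give the features with the same sign in the left-out arrays; the left-out control pool has medians of 0.231 and -0.142, nearer 0 than the grey ones.

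Whether the mean stood for unequal pool responses was examined with a moderated F test of the differences in T3 response between pools, which passed at 6 of 20546 features (0.0292%), and 721 of all features had an unadjusted p under 0.05. Among the 347 features called on the mean, 80 had such a p, 63 raised and 17 lowered, and among the 199 called in no single pool 6 had one. The rule for the 199 leaves out features with a large response in 1 pool. Their low count is therefore partly set by the choice and is no sign of even responses. A p that misses the threshold does not show equal responses. Over the called features, the median difference of the raised ones was 0.425, 0.364 and 0.25 (TRα1, TRβ1, control), and that of the lowered ones -0.301, -0.317 and -0.166. Of the lowered features, 62 of 68 were below 0 in every pool mean, and of the raised ones 274 of 279 were above 0. The count of 6 was 0 without any 1 replicate number, and 0 without any 1 of TRα1 on T3 replicate 2, control on T3 replicate 1, control on T3 replicate 2 and control on vehicle replicate 3.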

How the data were processed

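RNA from the HepG2 pools was hybridised to 18 arrays, 3 per group, which the series' design text calls biological repeats. The deposited values are log2 expression per feature, which the authors made by RMA; the submitters' processing notes also name R 2.7.1. The array settings and genome build are not given in the sources used here. Of 32321 features, 20546 carried a gene symbol in the platform annotation (19159 a single gene, 1387 several), and 11775 without one were left out. Arrays have no read depth; their number limits the precision.

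A linear model with 6 group means and the replicate number as a block (10 residual degrees of freedom) was fitted with limma 3.58.1 in R 4.3.3. The contrast was the mean of the 3 within-pool T3 minus vehicle differences, two-sided, with Benjamini-Hochberg adjustment over 20546 features and a threshold of 0.05. The fit was tested on simulated data. Replicate numbers were taken to pair arrays because the deviations of all 45 same-number pairs from their group means correlated positively (lowest r 0.259) and 18 of 18 arrays matched their own number best. P-values measure the spread between these repeats of 1 pool per construct.

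The genes named were the 12 highest and 12 lowest among called features with 1 gene, the 16 lower and 8 higher with the lowest p among those called in no single pool and moving one way in 9 pairs, THRA and THRB, up to 6 members of each of 47 lists, and up to 6 features of the F test. For a gene with several features the brightest was used. Of 951 list entries, 860 matched a tested feature, and the others were not analysed here. The comparisons, members and lists were chosen with earlier results of these data known. Alternatives were no block, 9 pairs as the block, an additive model, arrays, replicate numbers or pools left out, other feature sets, median centring, quantile normalization, a variance trend and array weights; 3 replicate-number means as the unit were added after seeing the data.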

Additional observations from a re-analysis of the deposited data

Results flagged for a closer look

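The response to T3 differed between pools in the F test for 6 features. PTAFR, the receptor of platelet-activating factor, had an adjusted p of 0.013, with T3 minus vehicle differences of 1.35, 0.99 and -0.01 (TRα1, TRβ1, control). ZNF717 also had 0.013, with 0.66, 0.19 and -0.34, and was not called on the mean (0.17 ± 0.05 SE, adjusted p = 0.10). KCNJ10, a potassium channel, had 0.0169, with 1.45, 0.62 and 0.07. CYP24A1, which breaks down vitamin D, had 0.0169, with 1.86, 1.83 and 0.40. FYN, a Src-family kinase, had 0.0169, with 1.79, 1.40 and 0.64. ENG, the TGF-β co-receptor endoglin, had 0.0244, with 1.35, 0.79 and -0.06. The mean over pools does not stand for a common response at PTAFR, KCNJ10 and ENG, where the control pool lay between -0.06 and 0.07. PCK1, KLF9, MASP1, SCN1A, GADD45A and IGFBP1, named above, also had a small difference in the control pool but did not pass the F test. No test compared single pairs of pools. Of 48 named genes examined for 1 array pair far from the other 8 in its difference, none had one.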

How the results depend on the processing

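Without the replicate block, 87 features were called in place of 347 (81 higher, 6 lower; 59 in no single pool, 5 of them lower), with 27, 15 and 2 in the single pools (TRα1, TRβ1, control) and 0 in the F test, whereas 9 pairs as the replicate block gave 470 (124 lower, 96 of them in no single pool; F test 1). Leaving out the TRα1 pool gave 119 (106 higher, 13 lower) and the TRβ1 pool 104 (99 and 5). The lower count was 44 over all features of the table, 132 above the median level and 108 with a variance trend, and in no single pool 99 above the median level and 80 with the trend. Median centring of the arrays gave 47 lower and 315 higher, and called again 28 of the 46 features lowered in no single pool. MSI2, SLC2A2 and PPARG then missed the threshold (limma adjusted p = 0.056, 0.058 and 0.072). The control pool had 9 calls over all features, 32 with the trend and 8 with array weights, which gave 258 and 164 in the TRα1 and TRβ1 pools. The F test gave 0 over all features and 3 above the median level. The 3 replicate-number means as the unit, added after seeing the data, gave 103 (93 higher, 10 lower).

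With 1 array or 1 replicate number left out, calls on the mean ran from 103 to 327 (higher 94 to 268, lower 9 to 65). They ran from 33 to 141 in the TRα1, 19 to 100 in the TRβ1 and 2 to 19 in the control pool. In no single pool they ran from 64 to 192, with 9 to 48 lower, and in the F test from 0 to 7. Of 99 named genes called, 84 passed with each of 18 arrays left out, 38 without each replicate number and 22 under every alternative; none changed sign. The precision of 9 pairs limits these small differences.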
